A study of Mus musculus with 21 samples.

Results

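The genes described here are 10 genes of the germline and of small RNA pathways: Tdrd12, Tdrkh, Ddx4, Dazl, Mael, Piwil2, Dicer1, Ago2, Tdrd1 and Asz1. They were found by the gene symbol that the platform annotation gives each probe, and they had 14 of the 24613 probes on the mouse Illumina bead array used. A probe was called detected on an array when its deposited detection p-value was below 0.01, and probes detected on at least 2 of the 21 arrays were tested. By this rule 8 probes of 7 genes were tested, among 8527 genes in all, and Mael, Tdrd1 and Asz1 were not.

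The study set embryos made by moving a genome into mouse zygotes against ordinary embryos, embryos with no genome and embryonic stem (ES) cells. At 48 to 50 h after the ovulation hormone hCG there were M phase transfer embryos (4 arrays, 22 to 24 h after transfer), interphase transfer embryos (2 arrays, zygotes enucleated and given a genome at interphase), genomeless embryos (2 arrays, 22 to 24 h after enucleation with no genome put back) and drug controls (3 arrays, embryos exposed to the microtubule poison nocodazole at mitosis). ES cells had 2 arrays, and the unmanipulated embryos were interphase zygotes at 24 to 28 h (3 arrays), mitotic zygotes held by nocodazole at 32 to 34 h (3 arrays) and 2-cell embryos at 48 to 50 h (2 arrays). Embryos were cultured in KSOM medium and pooled by 20 for each array. The sources used here do not give strain, genotype or the donor cell of the transferred genomes, and nothing states that arrays of 1 group came from separate collections, so p-values measure the spread between these samples, which may be technical.

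Piwi-interacting RNAs (piRNAs) are small RNAs of germ cells that guide PIWI proteins to transposon RNA, and many of the proteins that make them gather in granules beside mitochondria. Dicer and Argonaute proteins serve the other small RNA classes, microRNAs and small interfering RNAs, in germ cells and body cells alike. An oocyte stores RNA for use before the embryo transcribes its own genome, and much of this maternal RNA is destroyed by the time of genome activation, which in the mouse comes mainly at the 2-cell stage.

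Mean deposited signal was 73.0 to 687.57 in M phase transfer embryos, 107.23 to 124.51 in drug controls, 151.37 to 175.91 in ES cells, 122.15 to 166.43 in interphase zygotes, 123.85 to 174.47 in mitotic zygotes and 96.85 to 117.87 in 2-cell embryos. Array B of the interphase transfer embryos (12.79) and array B of the genomeless embryos (11.25) were far dimmer than array A of the same groups (535.14 and 334.78). They had 3412 and 2426 probes detected, against 5816 and 4816 on array A. Among the genes described here, a call that rests on them is given with and without them. For genes of the wider lists it is not. The source label of ES cell array A names peripheral blood. It was kept by its title, 8 of 9 ES cell markers on the platform were detected on both ES cell arrays and 2 of 9 blood cell markers were (Cd3e and Coro1a). Of 12 oocyte markers, 11 were detected on all 6 zygote arrays, and of 9 cumulus and granulosa cell markers at most 1 was detected in any group. Amhr2, the one detected on all arrays of M phase transfer embryos, drug controls and 2-cell embryos, brought the summed signal of that list (each array scaled by the authors to a mean of 198.09) to 665 to 1065, 1610 to 1763 and 1579 to 1590 in that order, against 8 to 115 in all other groups. Of 10 fibroblast feeder markers, 3 were detected in ES cells (Acta2, Fn1 and Thy1, with list sums of 313 to 2108) and 2 in M phase transfer embryos (37 to 1339). Interphase transfer embryos (47 to 376) and mitotic zygotes (Fn1, 44 to 54) had 1 each. None was detected in genomeless embryos (40 to 111), nor in drug controls, interphase zygotes and 2-cell embryos, which stayed at 50 or below. The part of these markers in the results was not tested. A pair of mitotic zygote arrays (A with C) and a pair of drug control arrays (B with C) differed by less than all other replicates did. Each pair was counted as 1 sample, which left 19 samples.

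The upstream sequences are shown for the 3 genes whose RNA was detected on all 6 zygote arrays and on no more than 1 of the 2 2-cell arrays (Tdrd12, Dazl and Ddx4), since their detection in zygotes and 2-cell embryos is described next. They are the 250 bases before the start in the gene's promoter entry, from RefSeq on GRCm38.p6. Of the 10 genes 8 had an entry (Piwil2 and Ago2 had none). The start of an entry can lie inside the gene. The Ddx4 window lies within the interval of the whole gene (chr13:112598333-112652633), and the Tdrd12 window partly overlaps that of Tdrd12 (chr7:35466941-35537784). Capitals mark CACGTG, the E-box, and TCCCGC or its reverse complement GCGGGA, a core of E2F sites. Both were searched on both strands, and no match of one overlapped a match of the other.
Tdrd12 (chr7:35537716-35537965, minus strand): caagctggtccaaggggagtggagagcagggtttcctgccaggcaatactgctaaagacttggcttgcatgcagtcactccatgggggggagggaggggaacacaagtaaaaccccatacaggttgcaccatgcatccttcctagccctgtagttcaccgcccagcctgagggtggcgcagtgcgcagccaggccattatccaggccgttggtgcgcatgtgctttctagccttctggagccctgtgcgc
Dazl (chr17:50293621-50293870, minus strand): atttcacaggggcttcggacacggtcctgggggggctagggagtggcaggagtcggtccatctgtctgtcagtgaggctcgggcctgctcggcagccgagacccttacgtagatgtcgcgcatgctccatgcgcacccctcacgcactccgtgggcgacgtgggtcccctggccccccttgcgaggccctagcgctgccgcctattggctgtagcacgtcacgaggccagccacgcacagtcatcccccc
Ddx4 (chr13:112652311-112652560, minus strand): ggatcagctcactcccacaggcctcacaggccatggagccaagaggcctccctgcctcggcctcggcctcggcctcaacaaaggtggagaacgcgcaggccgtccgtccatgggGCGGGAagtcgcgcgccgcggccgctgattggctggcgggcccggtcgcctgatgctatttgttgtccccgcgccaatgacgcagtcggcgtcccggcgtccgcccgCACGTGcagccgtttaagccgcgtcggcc
The Ddx4 window held 1 CACGTG, starting 29 bases before the start of its entry, and 1 GCGGGA, starting 136 bases before it. The Tdrd12 and Dazl windows held neither word, nor did a further Tdrd12 entry that is not shown (chr7:35537745-35537994). Over all 32851 promoter entries, 6.0% held CACGTG, 16.9% held TCCCGC or GCGGGA and 1.4% held both. CG dinucleotides numbered 6 in the Tdrd12 window, 20 in that of Dazl and 31 in that of Ddx4, against a median of 6 over all entries. Of the genes that were never detected, Mael also held both words and the first 2 of 3 Tdrd1 entries, whose windows overlap, held CACGTG. A match is a description of the sequence and was not set against binding data.

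Tdrd12 and Dazl RNA was lower in 2-cell embryos than in mitotic zygotes. The normalised level of Tdrd12 averaged 6.48 on the log2 scale in 2-cell embryos, where 1 of 2 arrays was detected, and 12.06 in mitotic zygotes. With the undetected array set at its detection floor, the log2 difference was -5.43. Dazl was at least 5.05-fold lower, and Ddx4 was detected on the 6 zygote arrays only. Piwil2 ran the other way, with no array detected among zygotes and both 2-cell arrays detected. Of the 7 genes tested, 2 fell and 0 rose in 2-cell embryos against mitotic zygotes by limma's moderated test (adjusted p below 0.05 over 8527 genes), where 27.6% of all genes tested were called (13.8% higher and 13.8% lower). The median log2 difference was -0.72 over these 7 and -0.02 over all genes. The SE and p-value of each difference use a spread estimated over all 8 groups, and n counts the samples of the groups compared. In pools of whole embryos, fewer cells holding an RNA and less RNA in each cell cannot be told apart.

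**Figure D1:**
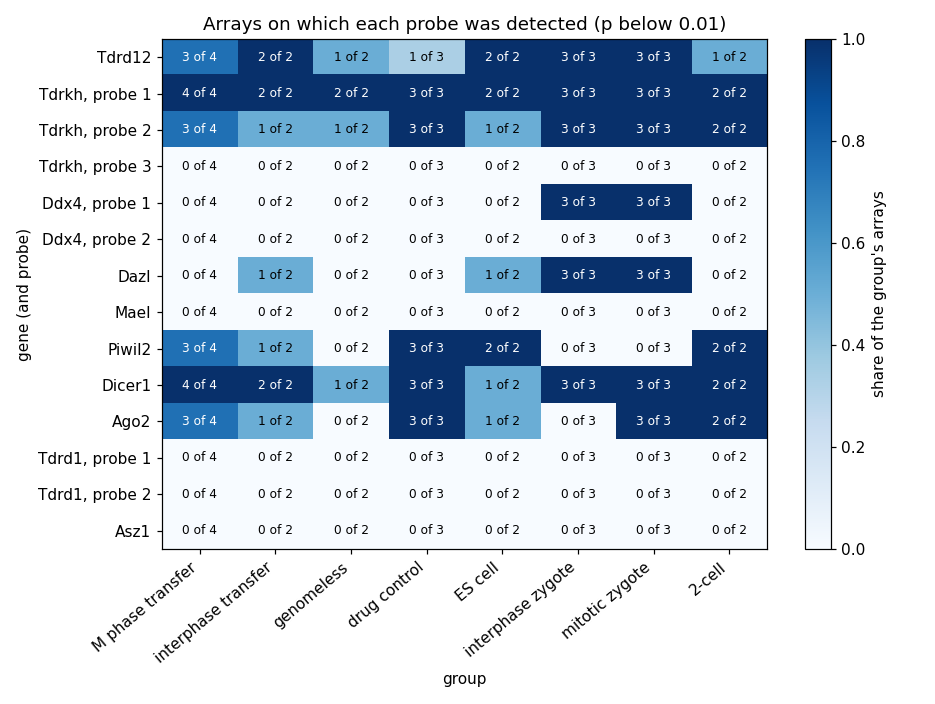
Number of arrays on which each of the 14 probes was detected (detection p below 0.01), by gene and probe (rows) and group (columns), with the shade giving the share of the group's arrays. Ddx4 was detected in the zygote groups alone, Piwil2 in no zygote or genomeless array, and Mael, Tdrd1 and Asz1 nowhere.

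Tdrd12 encodes a tudor domain protein with a helicase domain that piRNA production needs in the mouse male germline (chr7:35466941-35537784 in GRCm38.p6). Signals are given here on the authors' deposited scale, on which every array has a mean of 198.09. Along development the Tdrd12 signal was 4118, 5234 and 4295 in interphase zygotes, 3911, 3799.6 and 4209 in mitotic zygotes, and 28.7 and 8.7 in 2-cell embryos. All 6 zygote arrays lay far above both 2-cell arrays, of which only the first was detected. The log2 difference of 2-cell embryos over mitotic zygotes was -5.58 ± 1.01 (SE, n = 2 and 2 samples, limma adjusted p = 0.00101). On chip 4, which held both groups, it was -5.60, and with chip as a block -5.56 (limma adjusted p = 0.00353).

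The manipulated embryos differed widely in Tdrd12. Its signal was 123, 284, 138 and -1.5 in M phase transfer embryos and 203 and 2392 in interphase transfer embryos. It was 516 and 1.9 in genomeless embryos, 52.4, 23.8 and 19 in drug controls and 352 and 277 in ES cells. The value of 2392 was from the dim interphase transfer array, and 1.9 from the dim genomeless array, so that the dim array was the higher of the pair in one group and the lower in the other. Ordered by mean level, interphase zygotes (12.26 on the log2 scale) and mitotic zygotes (12.06) came first. Their arrays overlapped each other (limma adjusted p = 1) and lay above all arrays of the other groups. From interphase transfer embryos (9.93) through ES cells (8.44), genomeless embryos (7.90), M phase transfer embryos (7.36), drug controls (6.74) to 2-cell embryos (6.48), every neighbouring pair overlapped.

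**Figure D2:**
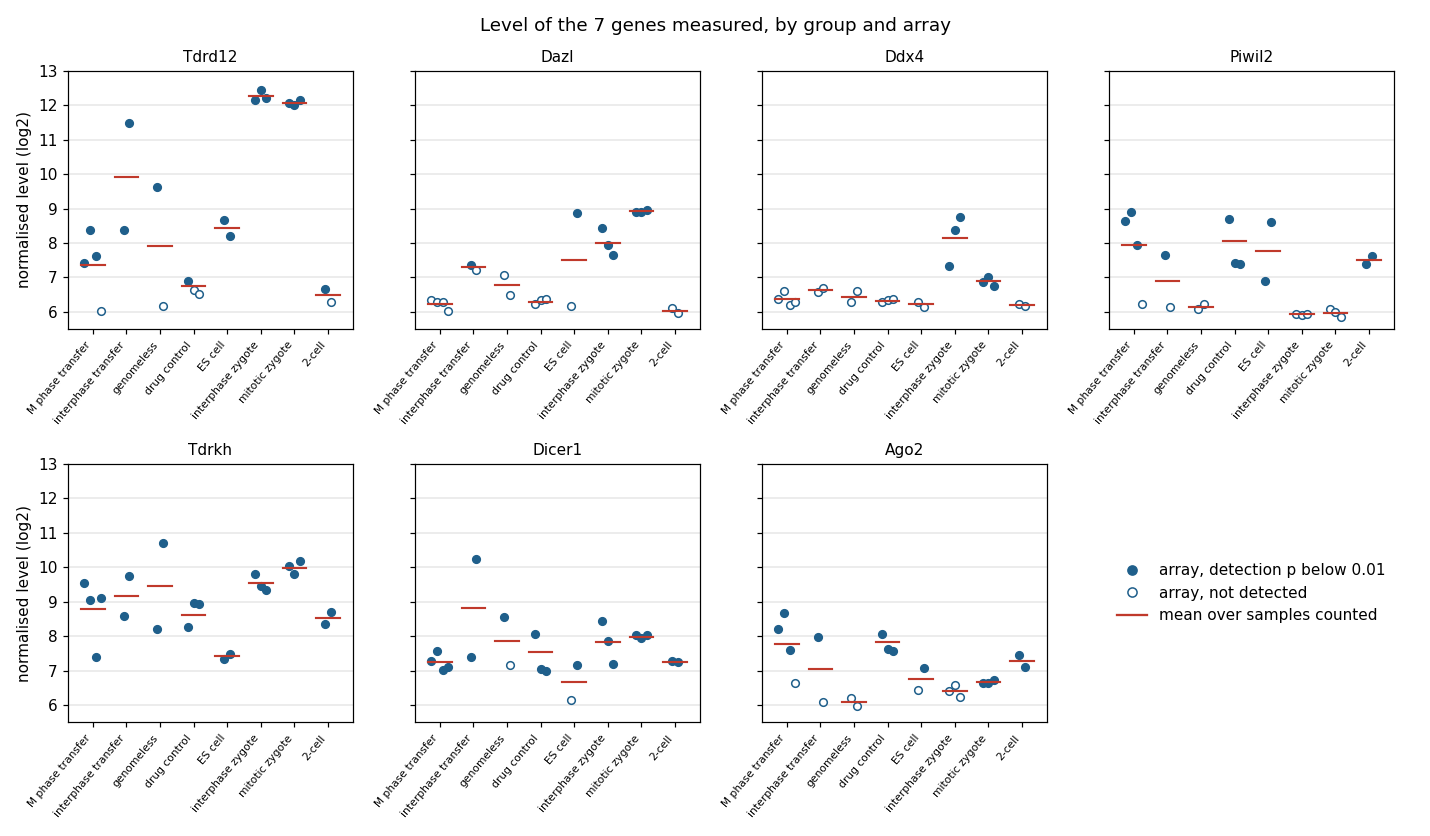
Normalised level (log2) of the 7 genes tested on each of the 21 arrays, by group; filled points were detected, open points were not, and the line is the mean over samples counted. Tdrd12 lies near 12 in zygotes and near 6.5 in 2-cell embryos. Piwil2 points lie near 6 in zygotes and genomeless embryos, none of them detected, and above 7 in 2-cell embryos. The detection floors of the genomeless arrays were 7.29 and 8.74, so their Piwil2 points give no level.

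Dazl encodes an RNA-binding protein that controls translation in germ cells, the oocyte included (chr17:50279393-50293620). Along development its signal was 349.8, 211 and 167 in interphase zygotes, 459, 465 and 477 in mitotic zygotes, and 1.9 and -2.7 in 2-cell embryos. The 3 mitotic arrays lay above every interphase array and neither 2-cell array was detected. The difference of 2-cell embryos over mitotic zygotes was -2.88 ± 0.59 on the log2 scale (SE, n = 2 and 2, limma adjusted p = 0.00234). It was -2.90 on chip 4 and -2.91 with chip as a block (limma adjusted p = 2.09e-05). Since no 2-cell array was detected, the size is a bound: mitotic zygotes were at least 5.05-fold higher than the lowest signal that was detected on the 2-cell arrays.

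Outside the zygote groups Dazl was detected on 1 interphase transfer array and 1 ES cell array. Its signal was 17.7, 12.1, 10.3 and -2.2 in M phase transfer embryos, none of them detected, and 67.0 and 59.6 in interphase transfer embryos, of which the first was detected. It was 37.7 and 26.0 in genomeless embryos and 8.4, 10.8 and 13.1 in drug controls, with no array detected. The 2 ES cell arrays disagreed, with 3.1 on array A and 469.5 on array B. By mean level mitotic zygotes (8.92 on the log2 scale) stood above interphase zygotes (8.01) with no overlap, and drug controls (6.30), M phase transfer embryos (6.24) and 2-cell embryos (6.03) were lowest, with overlap between neighbours among these 3.

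Ddx4 encodes the germline RNA helicase also known as Vasa, a component of germ granules (chr13:112598333-112652633). Along development its signal was 114, 302 and 426 in interphase zygotes, 60.2, 79.9 and 47.7 in mitotic zygotes, and 6.5 and 4.3 in 2-cell embryos. Every interphase array lay above every mitotic array, and every mitotic array above both 2-cell arrays. The difference of mitotic over interphase zygotes was -1.24 ± 0.33 on the log2 scale (SE, n = 2 and 3, limma adjusted p = 0.525, unadjusted p = 0.00221). Without interphase array A it was -1.66 (limma adjusted p = 0.0149). Of 20 alternatives 2 passed the test, and the difference ran from -1.94 to -0.94 over them all. Between 2-cell embryos and mitotic zygotes it was -0.70 ± 0.36 (SE, n = 2 and 2, limma adjusted p = 0.179, mitotic zygotes at least 1.25-fold higher), and -0.67 with chip as a block (limma adjusted p = 0.045). The chip block was chosen after seeing the data, and 5 of 19 alternatives passed the test. Ddx4 signal on the arrays where it was not detected ran up to 33.3, on the dim interphase transfer array. By mean level interphase zygotes (8.15 on the log2 scale) and mitotic zygotes (6.90) came first, each with no overlap with the next group, and the other 6 groups lay between 6.63 in interphase transfer embryos and 6.21 in 2-cell embryos. The second Ddx4 probe was detected on no array.

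Piwil2 encodes a PIWI protein, MILI, that binds piRNAs in germ cells (chr14:70372477-70436898). Along development its signal was -2.7, -5.4 and -4.1 in interphase zygotes, 2.8, -1.2 and -5.8 in mitotic zygotes, and 89.4 and 106 in 2-cell embryos. No zygote array was detected and both 2-cell arrays were. The difference of 2-cell embryos over mitotic zygotes was 1.53 ± 0.77 on the log2 scale (SE, n = 2 and 2, limma adjusted p = 0.163), with 2-cell embryos at least 2.05-fold higher than the detection floor. It was 1.59 on chip 4, and 1.75 with chip as a block, which passed the test (limma adjusted p = 0.0365) but was a setting chosen after seeing the data. Of 19 alternatives 3 passed, with differences from 1.03 to 3.5 over them all (highest limma adjusted p = 0.556). The SD of Piwil2 was 0.17 in 2-cell embryos and 0.02 in mitotic zygotes, where it was not detected. It was 1.21 in ES cells, which share in the spread behind the SE.

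Piwil2 signal was 379.8, 448, 194 and 5.6 in M phase transfer embryos and 93.4 and -0.3 in interphase transfer embryos. It was -1.3 and 5.2 in genomeless embryos, 358, 86.6 and 80.5 in drug controls and 49.2 and 386 in ES cells. All drug control and ES cell arrays and 3 of 4 M phase transfer arrays were detected, and neither genomeless array was. The lowest M phase transfer value came from array D, the dimmest of that group. By mean level the first 5 groups, drug controls (8.06 on the log2 scale), M phase transfer embryos (7.93), ES cells (7.76), 2-cell embryos (7.51) and interphase transfer embryos (6.89), each overlapped the next. Genomeless embryos (6.15), mitotic zygotes (5.98) and interphase zygotes (5.94) were last, with arrays that overlapped and none detected, so their order carries no level.

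Ago2 encodes the Argonaute protein that cuts target RNA (chr15:73101625-73184947). Along development its signal was 20.4, 38.8 and 9.8 in interphase zygotes, 38.8, 39.7 and 45.4 in mitotic zygotes, and 99.0 and 55.0 in 2-cell embryos. No interphase array was detected, while all mitotic and 2-cell arrays were. The difference of 2-cell embryos over mitotic zygotes was 0.63 ± 0.60 (SE, n = 2 and 2, limma adjusted p = 0.504) on the log2 scale. Ago2 signal was 269.6, 369, 136 and 23.9 in M phase transfer embryos, 133 and -3.4 in interphase transfer embryos, and 6.7 and -27.2 in genomeless embryos. It was 206, 111 and 96.3 in drug controls and 16.2 and 92.4 in ES cells. Drug controls averaged highest (7.83 on the log2 scale) and genomeless embryos, with no array detected, lowest (6.10). From drug controls through M phase transfer (7.79), 2-cell (7.29), interphase transfer (7.04), ES cell (6.76) to mitotic zygote samples (6.66), each group overlapped the next.

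Dicer1 encodes the enzyme that cuts microRNA and small interfering RNA precursors (chr12:104687740-104751968). Along development its signal was 347, 198.5 and 109 in interphase zygotes, 228, 221 and 226 in mitotic zygotes, and 79.0 and 66.7 in 2-cell embryos. Both 2-cell arrays lay below all zygote arrays on this scale and all 8 arrays were detected, but after normalisation interphase zygote array C (7.21 on the log2 scale) lay below both 2-cell arrays (7.29 and 7.24). The difference of 2-cell embryos over mitotic zygotes was -0.72 ± 0.74 on the log2 scale (SE, n = 2 and 2, limma adjusted p = 0.535). Dicer1 signal was 107, 128, 66.6 and 44.1 in M phase transfer embryos, 70.4 and 775 in interphase transfer embryos, and 193 and 62.6 in genomeless embryos. It was 209.6, 52.5 and 47.5 in drug controls and 2.3 and 103 in ES cells. As for Tdrd12, the interphase transfer arrays stood far apart, with the higher value on the dim array, and all 8 groups overlapped their neighbours in order of mean level, from 8.83 in interphase transfer embryos to 6.66 in ES cells.

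Tdrkh encodes a tudor domain protein on the mitochondrial surface that takes part in piRNA trimming (chr3:94413243-94434854). The probe with the higher mean, which stands for the gene, was detected on all 21 arrays. Along development its signal was 925, 678.5 and 646 in interphase zygotes, 1024, 914 and 1144 in mitotic zygotes, and 249 and 301 in 2-cell embryos. Both 2-cell arrays lay below all zygote arrays, and the difference of 2-cell embryos over mitotic zygotes was -1.43 ± 0.73 on the log2 scale (SE, n = 2 and 2, limma adjusted p = 0.17). The other tested probe did not show this: its signal was 168, 97.8 and 150.0 in interphase zygotes, 177, 149.9 and 179 in mitotic zygotes, and 153 and 94.2 in 2-cell embryos, with a log2 difference of 2-cell embryos over mitotic zygotes of 0.04 ± 0.90 (SE, n = 2 and 2, limma adjusted p = 0.986). The first probe gave 784.5, 509, 113 and 397 in M phase transfer embryos, 244 and 479 in interphase transfer embryos, 244, 391 and 363 in drug controls and 91.4 and 150.3 in ES cells. By its mean level mitotic zygotes were first (9.97 on the log2 scale) and ES cells last (7.42), and the single gap between neighbours lay between 2-cell embryos (8.54) and ES cells. The 2 probes also ran apart on the dim genomeless array, where the first gave 1072 and the other 7.7, with 136 and 258 on genomeless array A. The remaining Tdrkh probe was detected on no array, so no direction is given for Tdrkh.

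**Figure D3:**
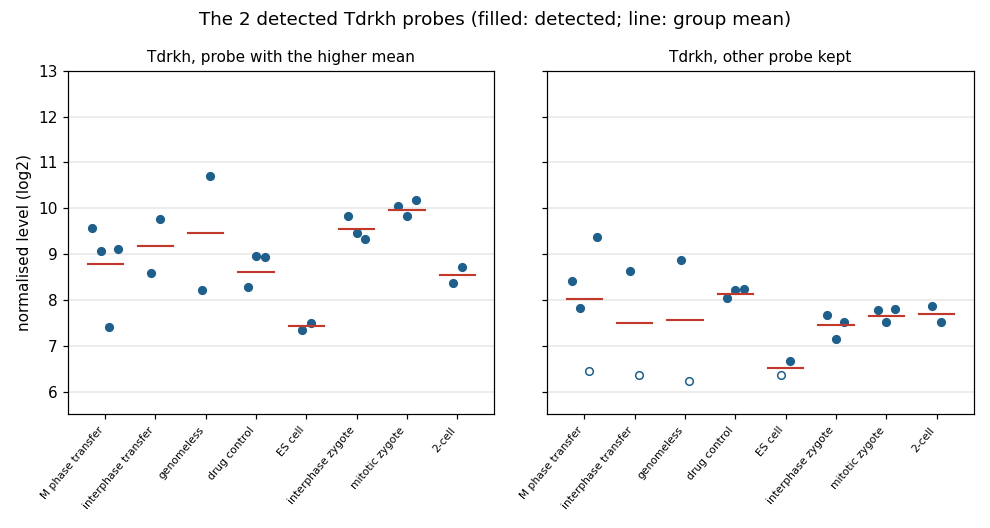
Normalised level (log2) of the 2 detected Tdrkh probes on each array, by group; filled points were detected, open points were not, and the line is the group mean. The left probe averages 8.54 in 2-cell embryos and 9.97 in mitotic zygotes, the right one 7.69 in 2-cell embryos and 7.65 in mitotic zygotes.

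Mael, Tdrd1 and Asz1 act in the piRNA pathway of the mouse male germline, Tdrd1 as a tudor domain partner of PIWI proteins and Asz1 on mitochondria. Their probes were detected on none of the 21 arrays in any of the 8 groups. The lowest detection p was 0.11922 for Mael (chr1:166201385-166238744), 0.24696 and 0.16058 for the 2 probes of Tdrd1 (chr19:56826171-56870012) and 0.62409 for Asz1 (chr6:18050964-18109061). On the deposited scale their highest signals were 24.3, 2.2, 19.9 and -2.3 in that order. For these genes the arrays give no level, and no difference was tested.

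Other genes of the same pathways, from lists drawn up for this purpose, moved in both directions between 2-cell embryos and mitotic zygotes. Of 11 further piRNA pathway and germ granule genes tested, 3 fell and 1 rose, beside 13.8% lower and 13.8% higher over all genes (median log2 difference -0.29, against -0.02 over all genes). Piwil1, which encodes the PIWI protein MIWI, was at least 6.85-fold lower (-3.27 ± 0.86, SE, limma adjusted p = 0.0115) and the kinesin gene Kif17 at least 6.30-fold lower (-2.85 ± 0.28, limma adjusted p = 9.1e-06). Ddx25, a germ cell helicase gene, was at least 3.08-fold lower (-1.99 ± 0.61, limma adjusted p = 0.0252). The gene that rose was Prmt5 (2.06 ± 0.62, limma adjusted p = 0.0236), an arginine methyltransferase that also acts outside the germline. Of 23 further microRNA and RNA interference genes, 1 fell and 1 rose, beside the same 13.8% each way over all genes (median 0.26): Snd1, a nuclease of small RNA complexes (-1.23 ± 0.38, limma adjusted p = 0.0247), and Tut7, which adds uridines to RNA ends (3.23 ± 0.83, limma adjusted p = 0.00989).

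Of 20 germ cell identity genes, 4 fell and 1 rose in 2-cell embryos against mitotic zygotes (median -0.22). Over all genes 27.6% were called in this comparison, and for none of the 3 lists was the count set against that share by a test. Ifitm3, an interferon-induced membrane protein gene that also marks germ cell precursors, fell by 3.05 on the log2 scale (SE 0.65, limma adjusted p = 0.00314). The oocyte transcription factor gene Nobox was at least 4.65-fold lower and Lhx8 at least 2.62-fold lower (limma adjusted p = 3.11e-05 and 0.000187), and Tex14, needed for bridges between germ cells, fell by 2.33 (limma adjusted p = 0.000278). Summed over 12 oocyte markers, the deposited-scale signal was 10989 to 12500 in 2-cell embryos and 62130 to 70690 in mitotic zygotes, so the oocyte markers as a sum were lower too, and their part in the result was not tested.

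Embryos without a genome also had less Tdrd12 and Dazl RNA than mitotic zygotes. Of the 7 genes tested, 2 fell and 0 rose, where 20.4% of all genes were called (6.85% higher and 13.5% lower). Tdrd12 averaged 7.90 in genomeless embryos and 12.06 in mitotic zygotes on the log2 scale, a difference of -4.15 ± 1.01 (SE, n = 2 and 2, limma adjusted p = 0.0109). Genomeless array B was not detected, and with it set at its detection floor the difference was -2.88. Dazl averaged 6.77 and 8.92 in the same order, a difference of -2.15 ± 0.59 (SE, limma adjusted p = 0.0199), and mitotic zygotes were at least 1.87-fold higher. Every genomeless sample lay below every mitotic one for both genes. Ddx4 (-0.46), Tdrkh (-0.51), Dicer1 (-0.12), Ago2 (-0.56) and Piwil2 (0.17) did not pass the test (limma adjusted p 0.422 to 0.949).

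These 2 calls rest on few samples. Neither gene was detected on genomeless array B, so a value that rests on that array alone, without array A, gives no level. Without genomeless array B, the dim one, the Tdrd12 difference was -2.43 (limma adjusted p = 0.116) and that of Dazl -1.86 (0.107), and without genomeless array A they were -5.87 (0.000763) and -2.43 (0.0206). Leaving out either mitotic sample also took both out of the called range (limma adjusted p 0.0627 and 0.0697 for Tdrd12, 0.0945 and 0.106 for Dazl). No chip held both groups, and with chip as a block, through groups that link the chips, Tdrd12 was at -4.25 (limma adjusted p = 0.181) and Dazl at -2.37 (0.0125). The 12 oocyte markers summed to 51724 to 54052 in genomeless embryos and 62130 to 70690 in mitotic zygotes.

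Set against drug controls of the same age, genomeless embryos had a lower Ago2 value in the fit, though neither genomeless array was detected. Of the 7 genes tested, 1 fell and 0 rose, where 30.7% of all genes were called (11.4% higher and 19.2% lower). Ago2 averaged 6.10 in genomeless embryos and 7.83 in drug controls on the log2 scale, a difference of -1.73 ± 0.60 (SE, n = 2 and 2, limma adjusted p = 0.0425), -1.59 on chip 6 and -2.06 with chip as a block (limma adjusted p = 0.0189). The detection floors of the 2 genomeless arrays were high, so no fold bound can be given. With these arrays set at their floors the difference was 0.19, so the direction is not settled. Leaving out any 1 of the 4 samples ended the call, with adjusted p 0.131 without genomeless array B, 0.0693 without genomeless array A, 0.197 without drug control A and 0.093 without drug controls B and C. Piwil2 averaged 6.15 in genomeless embryos and 8.06 in drug controls, a difference of -1.91 ± 0.77 (SE, limma adjusted p = 0.0761). Neither genomeless array was detected for Piwil2 either. With both set at their floors the Piwil2 difference was -0.04, so its size is not settled.

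Tdrd12 averaged 7.90 in genomeless embryos and 6.74 in drug controls, a difference of 1.16 ± 1.01 (SE, limma adjusted p = 0.422), and Dazl 6.77 and 6.30 in the same order, with no array detected in either group. For Tdrd12 the direction turned on 1 array: without genomeless array B the difference was 2.88 (limma adjusted p = 0.0406), and without genomeless array A it was -0.56 (0.732). On chip 6, where genomeless array B lies beside drug control C, it was -0.34. Tdrd12 was detected on neither of these arrays. With undetected arrays set at their detection floors the group difference was 2.36. The 5 2-cell markers on the platform were all detected in every drug control and none in genomeless embryos, with summed signals of 24 to 338 in genomeless embryos and 5836 to 7263 in drug controls.

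The wider lists held calls both ways here too, where 11.4% of all genes rose and 19.2% fell. Of 11 further piRNA pathway genes, 2 fell and 1 rose in genomeless embryos against drug controls: Prmt5 (-3.26 ± 0.62, SE, limma adjusted p = 0.00131) and Ddx39a, an RNA export helicase gene (-1.95 ± 0.53, 0.0123), fell, and Stk31, which encodes a tudor domain kinase-like protein of germ cells, rose by 1.20 (SE 0.38, limma adjusted p = 0.027). Of 23 microRNA and RNA interference genes, 2 fell and 4 rose. Tarbp2, the partner of Dicer, fell by 3.31 (SE 0.67, limma adjusted p = 0.00185) and Tsn, which encodes translin, fell by 1.89 (0.0132), while Lin28a, which binds let-7 precursors, rose by 2.21 (0.0126) and Tnrc6a, an Argonaute partner, rose by 1.99 (0.0398). Of 20 germ cell identity genes, 3 fell and 4 rose, Tfap2c (-2.87, limma adjusted p = 0.0102) and Dppa3 (-2.83, 0.00527) among the lower and Ifitm3 (2.66, 0.00661) and Nanos1 (2.58, 0.000142) among the higher. The list medians were 0.27, 0.03 and 0.04, against -0.03 over all genes. For the genes of these lists, detection on the genomeless arrays and values without the dim array B are not given here. Whether their calls rest on that array was not tested.

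None of the genes tested passed the test between M phase transfer embryos and drug controls. By limma's test 0 of 7 were called, 0 had an unadjusted p below 0.05, and 0.258% of all genes were called (0.129% higher and 0.129% lower). Tdrd12 averaged 7.36 ± 0.97 in M phase transfer embryos and 6.74 ± 0.23 in drug controls on the log2 scale (SD, n = 4 and 2), with a 95% interval of the difference from -1.25 to 2.49. For Piwil2 the difference was -0.12 (95% interval -1.55 to 1.31), for Ago2 -0.04 (-1.16 to 1.08) and for Dicer1 -0.30 (-1.66 to 1.07). Dazl and Ddx4 were detected on no array of either group. These intervals leave room for differences of more than 1 on the log2 scale in either direction for these 4 genes.

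**Figure D4:**
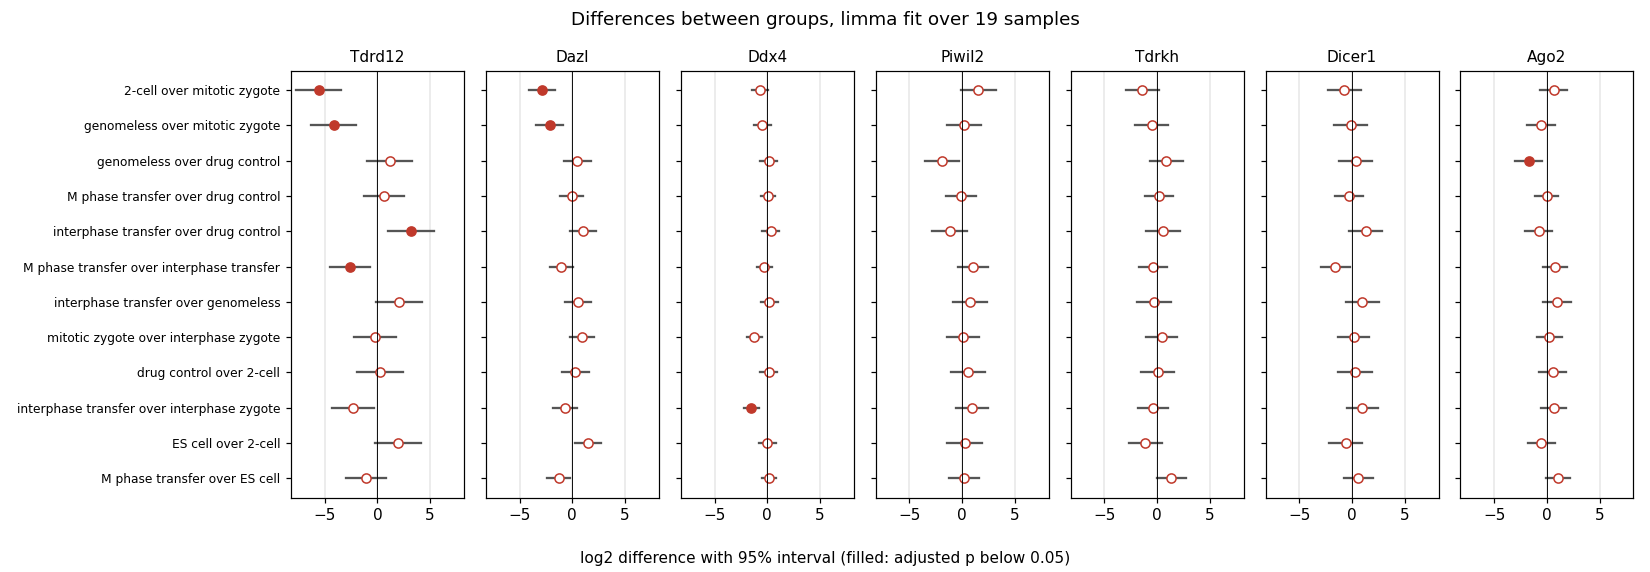
Log2 difference with its 95% interval for the 7 genes tested (panels) in the 12 comparisons (rows), each as the first group named over the other; filled points passed limma's test at an adjusted p below 0.05. Tdrd12 and Dazl have filled points left of 0 for 2-cell and genomeless embryos over mitotic zygotes, and M phase transfer embryos over drug controls have none.

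Interphase transfer embryos had more Tdrd12 RNA than drug controls. Of the 7 genes tested, 1 rose and 0 fell, where 26.6% of all genes were called (9.52% higher and 17% lower). Tdrd12 averaged 9.93 in interphase transfer embryos and 6.74 in drug controls on the log2 scale, a difference of 3.19 ± 1.01 (SE, n = 2 and 2, limma adjusted p = 0.0306). It rests on the dim array, since it was 1.65 without interphase transfer array B (limma adjusted p = 0.279), 4.73 without array A (0.00457) and 4.95 on chip 6, where array B lies. With chip as a block it was 3.10 (limma adjusted p = 0.155), and leaving out drug control A, or B and C, gave adjusted p 0.0963 and 0.14. Dazl was at 0.99 ± 0.59 (SE, limma adjusted p = 0.244) and Dicer1 at 1.28 ± 0.74 (0.226), and without array A Dicer1 was at 2.71 (0.00662). Oocyte markers summed to 44432 to 82481 in interphase transfer embryos and 11442 to 13550 in drug controls.

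M phase transfer embryos had less Tdrd12 RNA on average than interphase transfer embryos. On the deposited scale the groups overlapped, with M phase transfer signals up to 283.6 and interphase transfer signals from 202.7. Of the 7 genes tested, 1 fell and 0 rose, where 29.1% of all genes were called (17.8% higher and 11.4% lower). The difference was -2.57 ± 0.87 on the log2 scale (SE, n = 4 and 2, limma adjusted p = 0.0392). It was -0.50 on chip 5 and -4.65 on chip 6, which holds the dim interphase transfer array, and -1.03 without that array (limma adjusted p = 0.48). With chip as a block it was -2.57 (limma adjusted p = 0.0702). Leaving out M phase transfer array A, C or D gave adjusted p 0.0628, 0.0572 and 0.089. Of 21 alternatives 6 passed the test for Tdrd12. The Dazl difference was -1.05 ± 0.51 (SE, limma adjusted p = 0.143), close to the same on chip 5 (-1.04) and chip 6 (-1.06), and it passed the test with chip as a block (limma adjusted p = 0.00255). All 4 M phase transfer arrays lay below both interphase transfer arrays for Dazl. Among these arrays Dazl was detected on interphase transfer array A alone, so the chip 6 value compares undetected arrays. Dicer1 was at -1.58 ± 0.64 (SE, limma adjusted p = 0.0792), with 0.03 on chip 5 and -3.19 on chip 6.

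Between interphase transfer and genomeless embryos, 0 of the 7 genes were called and 0 had an unadjusted p below 0.05 by limma's test, where 0.915% of all genes were called (0.575% higher and 0.34% lower). Tdrd12 differed by 2.03 ± 1.01 (SE, limma adjusted p = 0.417), or by 0.75 with the dim genomeless array, where it was not detected, set at its floor. Without that floor the difference was -1.23 on chip 5 and 5.29 on chip 6, where both groups have their dim array. Without genomeless array A it was 3.75 (limma adjusted p = 0.023), and without interphase transfer array A it was 3.57 (0.0491). Against interphase zygotes, interphase transfer embryos had less Ddx4 RNA: 1 of the 7 genes fell and 0 rose, where 17.5% of all genes were called (5.44% higher and 12% lower). Ddx4 averaged 6.63 in interphase transfer embryos and 8.15 in interphase zygotes on the log2 scale, a difference of -1.51 ± 0.33 (SE, n = 2 and 3, limma adjusted p = 0.00649), at least 1.58-fold. No chip held both groups, and with chip as a random block the difference was -1.47 (limma adjusted p = 0.00369). Ddx4 was detected on neither interphase transfer array, so its fold is a bound. With both arrays set at their detection floors the Ddx4 difference was -0.66. The floor of the dim array, 8.04, lay above interphase zygote array A (7.32). Tdrd12 was at -2.32 ± 0.92 (SE, limma adjusted p = 0.0987) in the same comparison, and at -3.87 without the dim array (0.0223).

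The remaining comparisons made no calls among the 7 genes by limma's test. Between mitotic and interphase zygotes 0% of all genes were called, with 402 of 8527 at an unadjusted p below 0.05, Ddx4 among them. Between drug controls and 2-cell embryos 0% were called, with 96 of 8527 and none of the 7 genes at an unadjusted p below 0.05. The largest of the 7 differences there was Piwil2 at 0.55 (95% interval -1.10 to 2.20), and for Tdrd12 the interval ran from -1.90 to 2.43.

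Between ES cells and 2-cell embryos 15.3% of all genes were called (8.37% higher and 6.97% lower). Tdrd12 averaged 8.44 in ES cells and 6.48 in 2-cell embryos (1.96 ± 1.01, SE, limma adjusted p = 0.24), with no overlap between their samples. Dazl averaged 7.52 and 6.03 in the same order (1.49 ± 0.59, SE, unadjusted p = 0.0239, limma adjusted p = 0.111), ES cells being at least 1.92-fold higher. Dazl was detected on ES cell array B (log2 8.88) but not array A (6.16), the one with the blood source label. Without array A the Dazl difference was 2.85, and without array B 0.13, each time with a single ES cell sample. Between M phase transfer embryos and ES cells 17.8% of all genes were called (8.1% higher and 9.71% lower). Dazl differed by -1.28 ± 0.51 (SE, limma adjusted p = 0.101), by -2.64 without ES cell array A and by 0.08 without array B. Tdrkh differed by 1.36 ± 0.63 (SE, limma adjusted p = 0.165), and by 1.83 without M phase transfer array C (0.044).

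Among themselves, the 7 genes fell into patterns that the order of levels already shows. Over the 19 samples the normalised log2 levels of Piwil2 and Ago2 had a Pearson r of 0.875, those of Tdrd12 and Dazl 0.776, those of Tdrd12 and Ddx4 0.731 and those of Tdrd12 and Piwil2 -0.604. These are descriptions, since samples share groups and chips. The genes most like Tdrd12 over the same 19 samples were Pdzk1 (r = 0.946), Tob2 (0.942) and Cldnd1 (0.938). Those most like Dazl were Manba (0.947), Cd1d1 (0.936) and Atp6v1b2 (0.931), and those most like Piwil2 were Pi4k2b (0.942), Dbr1 (0.938) and Senp2 (0.931). For Dicer1 they were Crtc3 (0.864), Vps37a (0.861) and Tsc22d1 (0.859), and for Tdrkh Ifit1bl2 (0.779), Abcb9 (0.769) and Lypd6b (0.767). Group means of Dicer1 spanned 2.17, with interphase transfer embryos highest, at 7.40 on array A and 10.25 on the dim array B. How far the Dicer1 matches rest on the dim array was not tested. Group means of Ddx4 and Ago2 spanned less than 2 on the log2 scale, and no genes were sought for them.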

How the data were processed

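RNA of pooled embryos and of ES cells was isolated with PicoPure, amplified, labelled with biotin and hybridised to Illumina bead arrays, per the labels. GenomeStudio is the tool named in the submitters' processing notes (version not stated). The non-normalised values the authors deposited are a probe intensity after background subtraction, as values below 0 show. Beside each the authors deposited a detection p-value. A processed table they added equals this intensity multiplied by a constant for each array. Probes were named by the platform annotation (20984 of 24613 carried 1 symbol, 1 several and 3628 none). The files held 0 columns of other series.

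Signals were corrected with normexp (offset 50), quantile-normalised and log2-transformed in limma 3.58.1 under R 4.3.3. The filter (detection p under 0.01, 2 or more arrays) kept 11541 probes. The probe with the highest mean stood for its gene, giving 8527 genes (for 1377 a choice among several probes). Within groups, 2 pairs of arrays with an SD of log2 differences under 0.2 were averaged (the other 17 pairs had 0.28 to 1.477). A mean for each of the 8 groups was fitted to 19 samples with moderated variances (11 residual degrees of freedom), adjusted by Benjamini-Hochberg over all genes, and called below 0.05. The number of arrays limits the precision. Where a group was detected on no array, the fold is a bound against the lowest detected signal on each of its arrays. The fit was tested on simulated data.

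The members and lists were chosen with earlier results of these data known. Named from each list were up to 4 called genes with the largest difference in 2-cell embryos over mitotic zygotes and in genomeless embryos over drug controls, and the 3 genes most correlated with each member whose group means spanned over 2. Alternatives changed background correction, scaling, filter, variance model, weights, samples, chip and replicate blocks. GRCm38.p6 coordinates are RefSeq's.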

Additional observations from a re-analysis of the deposited data

How the results depend on the processing

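The lower levels of Tdrd12 and Dazl in 2-cell embryos than in mitotic zygotes passed the test in all 19 alternatives (log2 difference -7.86 to -5.14 and -5.54 to -2.51, highest limma adjusted p 0.0124 and 0.0218). No called difference changed sign under the alternatives. Setting undetected arrays at their detection floors was not among them. It moved Ago2 in genomeless embryos over drug controls from -1.73 to 0.19. Over the 84 member differences, 1466 of 1652 values under alternatives kept their direction and side of the threshold, 90 uncalled values changed sign, 47 lost the call and 49 gained it; the causes were not tested.

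Leaving out 1 sample at a time, the number of the 7 genes called stayed at 2 for 2-cell embryos over mitotic zygotes, and ran 0 to 2 for genomeless embryos over mitotic zygotes, 0 to 1 for genomeless embryos over drug controls, 0 to 2 for interphase transfer over drug controls, 0 to 3 for M phase over interphase transfer, 0 to 2 for interphase transfer over genomeless embryos, 1 to 2 for interphase transfer over interphase zygotes, and 0 to 1 for mitotic over interphase zygotes, ES cells over 2-cell embryos and M phase transfer over ES cells. For 2-cell embryos over mitotic zygotes it was 4 with chip as a block, 6 with array weights and 7 with only the 2 groups fitted. For genomeless embryos over mitotic zygotes it was 1 without the 2 dim arrays, with chip as a block and with array weights, and 0 with only the 2 groups. For genomeless embryos over drug controls it was 2 with no further background correction, with the deposited scaling and with the replicate block, and 0 with median scaling, no filter, array weights or only the 2 groups. For interphase transfer over drug controls it was 0 with no further background correction, median scaling, the deposited scaling, no filter, chip as a block, only the 2 groups or without the 2 dim arrays. For M phase over interphase transfer it was 0 with the neqc-type background (offset 16), median scaling, the deposited scaling, no filter, a detection p below 0.05, array weights or without the 2 dim arrays, and 2 with the replicate block. For interphase transfer over interphase zygotes it was 2 with median scaling or without the 2 dim arrays and 0 with array weights or only the 2 groups. For ES cells over 2-cell embryos it was 1 without the 2 dim arrays or with only the 2 groups and 2 with array weights. For M phase transfer over ES cells it was 1 without the 2 dim arrays or with the replicate block and 2 with array weights, and for mitotic over interphase zygotes 2 with array weights. Samples that share a replicate letter across groups had residuals with a mean correlation of 0.02 (62 pairs, against 0.13 over 27 pairs on the same chip), so the letters were not taken as pairs, and with them as a replicate block Tdrd12 in 2-cell embryos over mitotic zygotes stayed called.

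Over all genes, calls ran from 1296 to 5115 for 2-cell embryos over mitotic zygotes (2356 as reported), 231 to 2770 for genomeless embryos over mitotic zygotes (1736), 990 to 3393 for genomeless embryos over drug controls (2615), 0 to 1275 for M phase transfer over drug controls (22), 830 to 2994 for interphase transfer over drug controls (2265), 1036 to 2997 for M phase over interphase transfer (2483), 0 to 937 for interphase transfer over genomeless embryos (78), 371 to 2144 for interphase transfer over interphase zygotes (1491), 638 to 1926 for ES cells over 2-cell embryos (1308), 882 to 2314 for M phase transfer over ES cells (1519), 0 to 1270 for mitotic over interphase zygotes (0) and 0 to 1 for drug controls over 2-cell embryos (0). Scaling moved the share of calls that were higher: with median scaling and with the deposited scaling it was 37.3% and 39.4% for 2-cell embryos over mitotic zygotes (50% as reported), 0.2% and 14.2% for genomeless embryos over mitotic zygotes (33.6%), 1.4% and 26.8% for genomeless embryos over drug controls (37.3%), 98.2% and 71.9% for M phase over interphase transfer (61%) and 0.4% and 13.4% for interphase transfer over interphase zygotes (31.1%). With median scaling it was 1.8% for interphase transfer over drug controls (35.8%), 82.7% for ES cells over 2-cell embryos (54.6%) and 71.4% for M phase transfer over drug controls (50%), and with the deposited scaling 78.3% for interphase transfer over genomeless embryos (62.8%). The median of all genes then moved to -0.22 and -0.30 for 2-cell embryos over mitotic zygotes (-0.02) and to -0.44 and -0.61 for genomeless embryos over mitotic zygotes (-0.10). Quantile scaling on the log2 scale and the chip block on 21 separate arrays were chosen after seeing the data. Low signal over background limits the dim arrays.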
